A study of Mus musculus with 10 samples.

Results

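The contractile genes of smooth muscle were followed on 10 microarrays: Actg2, Acta2, Myh11, Mylk, Cnn1, Tagln, Smtn, Lmod1, Des and Synm. They were taken by symbol from the gene annotation of the array platform, which gave 17 probe sets for these 10 genes, of 18193 genes with a symbol of their own on the array. Each gene was read through the probe set with its highest mean over all arrays, and all 10 genes passed the filter on dim genes that left 13644 genes for testing. The mice were the F2 offspring of a cross of the C57BL/6 (B6) and BALB strains. The groups were 5 cystic fibrosis knockouts whose title code begins with H, 3 cystic fibrosis knockouts whose code begins with L, and 2 controls. The title of the study speaks of knockout mice of variable weight, but the labels do not spell out H and L, and they give neither the knockout allele nor the age. The design text counts 9 knockouts and 6 controls, and the other animals are not analysed here.

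Smooth muscle contracts when calcium, acting through calmodulin, switches on the kinase that phosphorylates the myosin light chain, so that myosin pulls on filaments of smooth muscle actin. Calponin, transgelin, smoothelin and leiomodin bind these actin filaments and control their use or their assembly, and desmin and synemin form the intermediate filaments that tie the contractile units together. In the intestine this muscle forms the outer layers of the wall and moves the contents along; it also lies around airways and in vessel walls. Many of these genes are driven by serum response factor (SRF) with its partner myocardin at a DNA element called the CArG box, and in humans, variants of ACTG2, MYH11, LMOD1 and MYLK cause failure of the muscle of gut and bladder.

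The RNA is labelled as total RNA of whole right lung, while the study's title speaks of the intestine. The enterocyte transcript Fabp2, a fatty acid binding protein, read 4091 ± 621 in knockouts (SD, n = 8), against 7345 and 6715 in controls, and the brush border protein Vil1 read 2675 ± 164 in knockouts and 3721 and 3567 in controls. The lung transcript Sftpc, a surfactant protein, read 2178 ± 1113 in knockouts and 1190 and 1107 in controls, and the club cell secretory protein Scgb1a1 read 3467 ± 1384 in knockouts and 2667 and 2684 in controls, so transcripts of both organs were present on the arrays. Cftr, the gene of cystic fibrosis, read 28.1 ± 6.63 in knockouts and 131 and 137 in controls, lower by a log2 value of -1.91 ± 0.16 in the limma fit (SE; adjusted p = 0.00528), in the direction of the genotype labels. The files hold linear intensities with array medians of 18.4 to 18.8, and all intensities below are on that scale. An intensity is compared only within a probe set, never between genes. Every title carries M (6 arrays) or F (4 arrays) and an animal number. The numbers fall into an upper range, with knockouts H 1, 2 and 3 and L 1 and 2, and a lower range, with the other 3 knockouts and both controls.

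Promoter windows from 250 bases before to 50 bases after the start, taken from RefSeq with build GRCm38.p6, were matched for 7 of the 10 genes: Acta2, Des, Cnn1, Lmod1, Mylk, Smtn and Synm. They were searched for the CArG box, the site that SRF binds, exactly and with up to 1 letter off, on both strands. The windows of Acta2, Lmod1 and Synm are printed because they hold a CArG-like stretch, and that of Myl9 because this light chain of smooth muscle myosin followed the 10 genes most closely over the arrays and holds an exact box. Capitals mark the CArG box or its 1-letter variants, and each line reads 5′ to 3′ on the gene's strand. Acta2 lies on the minus strand at chr19:34255324-34255623, Lmod1 on the plus strand at chr1:135324563-135324862, Synm on the minus strand at chr7:67759693-67759992 and Myl9 on the plus strand at chr2:156775214-156775513.
Acta2: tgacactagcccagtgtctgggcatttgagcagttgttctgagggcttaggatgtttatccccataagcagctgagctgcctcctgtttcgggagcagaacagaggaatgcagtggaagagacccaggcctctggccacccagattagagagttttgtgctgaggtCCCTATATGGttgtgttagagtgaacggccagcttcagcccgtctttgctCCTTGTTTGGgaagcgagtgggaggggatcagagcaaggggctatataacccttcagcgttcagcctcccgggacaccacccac
Lmod1: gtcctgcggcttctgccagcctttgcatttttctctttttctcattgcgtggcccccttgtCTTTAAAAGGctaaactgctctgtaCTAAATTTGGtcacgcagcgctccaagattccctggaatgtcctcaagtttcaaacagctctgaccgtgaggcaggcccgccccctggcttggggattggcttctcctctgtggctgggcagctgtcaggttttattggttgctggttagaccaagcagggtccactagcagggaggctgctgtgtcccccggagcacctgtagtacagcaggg
Synm: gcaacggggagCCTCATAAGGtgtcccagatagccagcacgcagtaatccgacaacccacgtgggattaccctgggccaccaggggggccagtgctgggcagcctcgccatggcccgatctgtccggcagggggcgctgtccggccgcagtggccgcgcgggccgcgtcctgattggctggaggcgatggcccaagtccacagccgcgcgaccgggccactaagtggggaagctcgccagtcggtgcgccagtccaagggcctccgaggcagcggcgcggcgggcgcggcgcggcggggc
Myl9: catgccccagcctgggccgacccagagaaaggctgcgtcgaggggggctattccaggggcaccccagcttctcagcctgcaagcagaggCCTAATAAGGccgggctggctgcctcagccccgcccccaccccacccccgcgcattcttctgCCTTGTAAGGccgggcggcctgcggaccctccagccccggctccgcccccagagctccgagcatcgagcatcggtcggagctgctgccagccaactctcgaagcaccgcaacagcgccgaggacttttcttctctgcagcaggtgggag

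None of the 7 windows held an exact CArG box (0 of 7), and 3 of 7 (42.9%) held one with up to 1 letter off. Among 36 windows of 27 other contractile and cytoskeletal genes, 9 windows held an exact box and 16 held one with up to 1 letter off. Over all 32851 windows of 27025 genes, 1.63% held an exact box and 21.1% held one with up to 1 letter off. In these larger sets some genes had several windows, each counted on its own, while the 7 windows came from 7 genes. The Acta2 window held variants at positions -84 to -75 and -34 to -25 from the start, the Lmod1 window at -189 to -180 and -164 to -155, and the Synm window at -239 to -230. Myl9 had its exact box at -161 to -152 and a 1-letter variant at -99 to -90. The MCAT element CATTCC, which TEAD factors bind, stood on either strand in 4 of 7 windows (57.1%; Acta2, Lmod1, Mylk and Smtn), in 7 of the 36 other contractile windows (19.4%) and in 14.7% of all windows. These matches describe the printed letters and were not tested as sites.

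On these arrays the 10 genes moved as one block from animal to animal, and the block did not follow genotype. Arrays knockout H 3, knockout L 1, knockout L 3 and control 2 were the 4 highest arrays for all 10 genes, while 149 of 13644 genes (1.09%) had those same 4 arrays highest. Control 2 was the highest array for 7 of the genes, and the other control was the lowest for 6. Knockout H 2 was the lowest for the other 4. In whole tissue, fewer muscle cells and less RNA per muscle cell cannot be told apart.

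**Figure D1:**
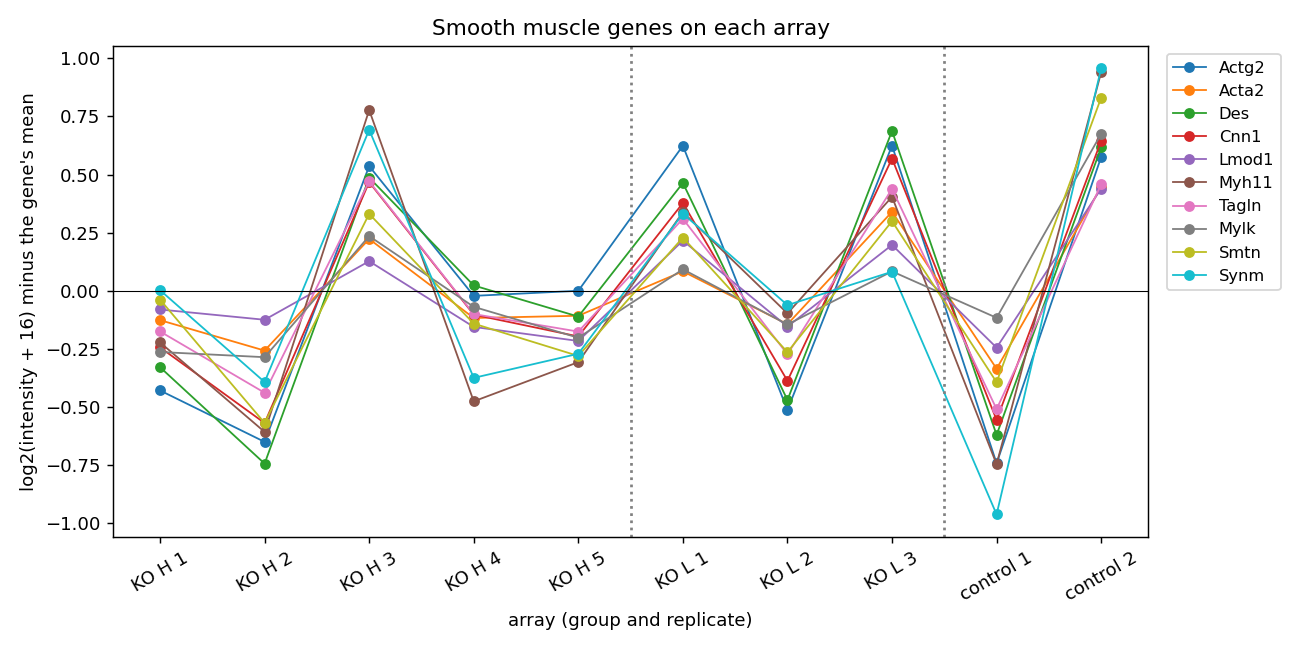
Log2(intensity + 16) of each gene minus that gene's mean over the 10 arrays (y axis) on each array (x axis), one line per gene, with knockouts H, knockouts L and controls separated by dotted lines. All 10 lines peak at knockout H 3, knockout L 1, knockout L 3 and control 2, and the controls lie apart, control 2 high and control 1 low.

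Among the actins, Actg2, the gamma actin of enteric smooth muscle, read 882, 754, 1738, 1175 and 1193 in knockouts H, 1848, 831 and 1848 in knockouts L, and 706 and 1787 in controls. Knockouts H 1, H 2 and L 2 lay near the lower control, knockouts H 3, L 1 and L 3 lay near or above the higher one, and the groups overlapped. Acta2, the alpha actin of smooth muscle, read 2576, 2351, 3286, 2593 and 2610 in knockouts H, 2982, 2544 and 3565 in knockouts L, and 2226 and 3839 in controls. All 8 knockouts lay between the controls, with H 3, L 1 and L 3 the highest knockouts. The name of this Acta2 probe set carries the suffix _s_at, which Affymetrix gives to probes that match transcripts of more than one gene, and whether it also reads other actins was not tested. Group means of Actg2 were 1148 ± 380 in knockouts H, 1509 ± 587 in knockouts L and 1246 ± 764 in controls (SD, n = 5, 3 and 2), each difference smaller than the spread.

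Of the motor genes, Myh11, the smooth muscle myosin heavy chain, read 311, 234, 637, 258 and 292 in knockouts H, 466, 340 and 488 in knockouts L, and 211 and 716 in controls. The controls differed 3.39-fold and enclosed all 8 knockouts, while knockout H 3 stood far above the other knockouts H. Mylk, the myosin light chain kinase, whose gene also encodes a longer kinase of epithelium and endothelium, read 854, 840, 1213, 979 and 892 in knockouts H, 1097, 928 and 1090 in knockouts L, and 947 and 1652 in controls. Control 2 stood above every knockout, but control 1 was not low on this probe set. There 4 knockouts lay below it, so 4 of 8 knockouts lay between the controls. Another Mylk probe set gave 334, 314, 473, 331 and 304 in knockouts H and 414, 382 and 478 in knockouts L. Its controls read 360 and 822, so control 2 was again high and control 1 was not low. On the dimmest Mylk probe set control 2 was also high, at 97.0, but control 1 was low. Control 1 read 41.8 there, and only knockout H 2, at 41.5, lay below it. Whether control 1 was low for Mylk thus depended on the probe set.

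Cnn1, calponin 1, which binds actin and holds back myosin, read 502, 397, 832, 555 and 519 in knockouts H, 781, 453 and 894 in knockouts L, and 401 and 943 in controls. Tagln, transgelin or SM22, an actin-bundling protein, read 1224, 1017, 1925, 1290 and 1224 in knockouts H, 1720, 1142 and 1882 in knockouts L, and 968 and 1907 in controls. In both genes knockouts H 3, L 1 and L 3 lay close to control 2 and the rest lay nearer to control 1, so the groups overlapped. Smtn, smoothelin, found with actin filaments of contractile smooth muscle, read 175, 116, 231, 162 and 146 in knockouts H, 214, 148 and 226 in knockouts L, and 133 and 333 in controls. Lmod1, leiomodin 1, which nucleates actin filaments, read 41.5, 39.8, 50.5, 38.6 and 36.4 in knockouts H, 54.7, 38.7 and 53.8 in knockouts L, and 35.4 and 66.6 in controls. Control 2 was the highest array for both, and Lmod1 stayed in a narrow range, at 1.88-fold between the lowest and the highest array.

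Of the intermediate filament genes, Des, desmin, read 209, 153, 380, 271 and 246 in knockouts H, 374, 188 and 439 in knockouts L, and 168 and 417 in controls. Knockout L 3 was the highest array and knockout H 2 the lowest, and knockouts lay on both sides of each control. Synm, synemin, a partner of desmin, read 120, 87.0, 203, 88.3 and 96.1 in knockouts H, 154, 114 and 127 in knockouts L, and 53.4 and 247 in controls. It had the widest range of the 10 genes, 4.62-fold, and it was set by the controls, which enclosed all 8 knockouts. Its second probe set showed the same, with 65.6, 38.2, 117, 62.5 and 57.7 in knockouts H, 90.7, 66.1 and 92.7 in knockouts L, and 37.6 and 143 in controls.

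**Figure D2:**
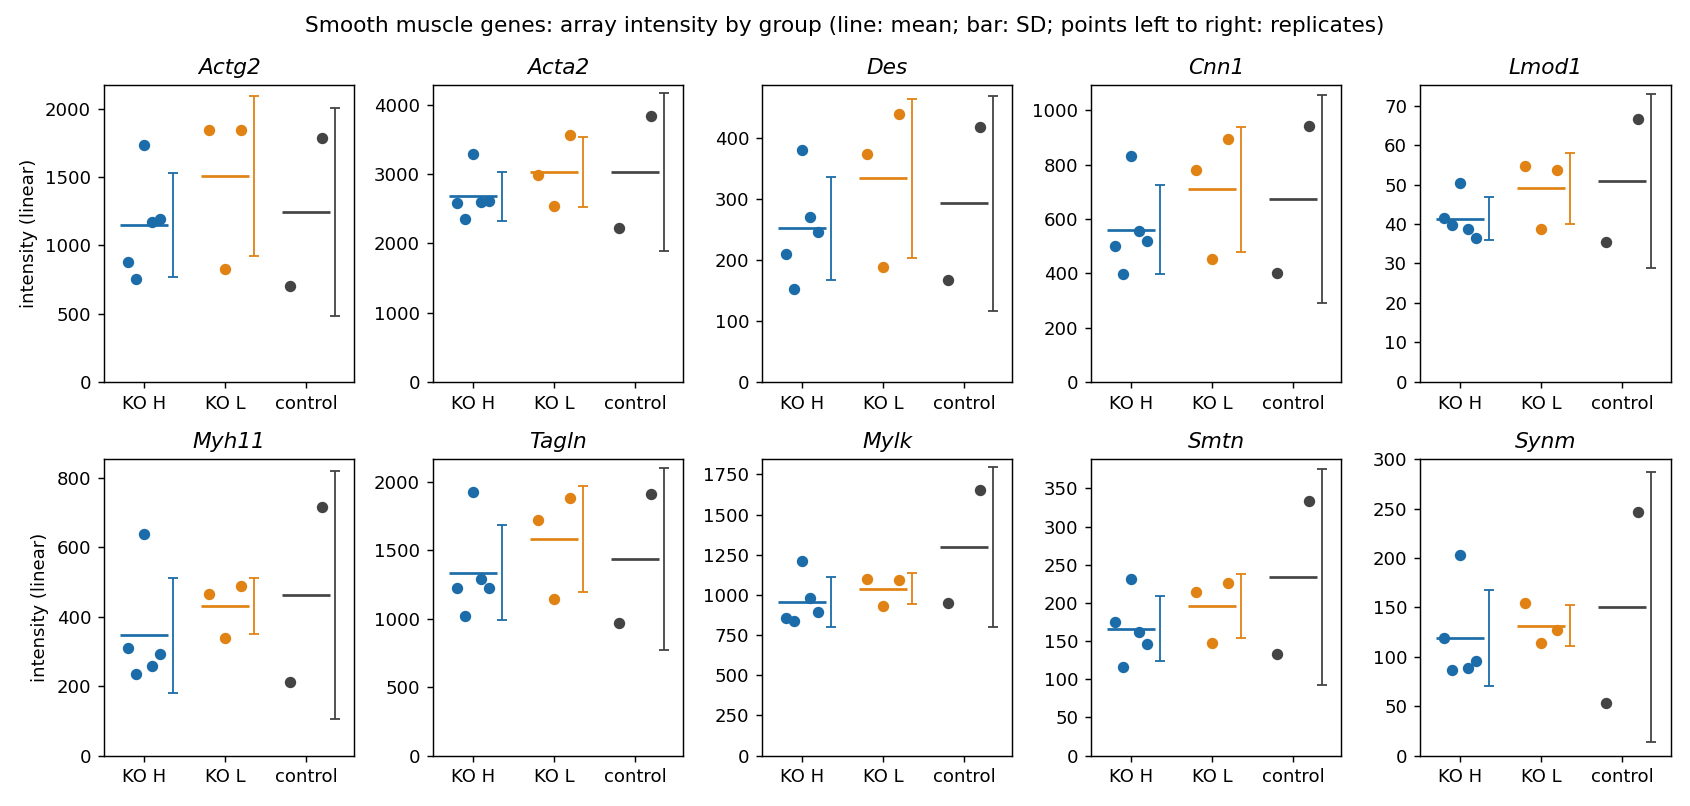
Intensity on a linear axis (y axis) for each gene in knockouts H, knockouts L and controls (x axis), one point per array, with a line at the group mean and a bar for the SD. The control points lie apart for every gene, and all 8 knockouts fall between them for Acta2, Lmod1, Myh11 and Synm.

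Some of the genes have more probe sets than the one used. Of the 7 probe sets not used, 3 lay above the array median on all 10 arrays, those of Mylk (both) and Synm. Their Pearson r with the probe set used was 0.91 and 0.96 for Mylk and 0.95 for Synm over 10 arrays. The dimmer ones followed less closely: r was 0.81 for Myh11, 0.73 and 0.53 for Acta2 and 0.24 for Des, whose second probe set lay above the array median on 0 arrays.

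The spread of these genes between arrays was wide. The SD of log2(intensity + 16) over the 10 arrays had a median of 0.45 over the 10 genes, against 0.14 over all genes tested. For 7 of the 10 genes it exceeded 0.30, the 90th percentile of all genes, and the lowest SD, 0.23 for Lmod1, lay at percentile 80.7. The added 16 lowers the SD of a dim gene: by intensity Lmod1 ranged 1.88-fold and Acta2 1.72-fold. Much of the spread lay between the controls: control 2 exceeded control 1 by 1.72-fold for Acta2 up to 4.62-fold for Synm, with a median log2 difference of 1.21 over the 10 genes and of -0.02 over all genes. On the log2(intensity + 16) scale the smallest of these differences was 0.68, for Lmod1, and 162 of 13644 genes (1.19%) had control 2 above control 1 by at least as much. Within knockouts H, H 3 was the highest array for 10 of 10 genes and H 2 the lowest for 9, and within knockouts L, L 2 was the lowest for 10 of 10.

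The 10 genes varied together pair by pair. Over the 45 pairs, Pearson's r of log2 values across the 10 arrays had a median of 0.90, with Actg2 and Mylk the least alike at 0.74 and Cnn1 and Tagln the most alike at 0.99. Over the 8 knockouts alone, leaving out both controls, the median was 0.89. These correlations are a description: the points share the arrays, their RNA and their normalization.

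The comparison of knockout with control asks whether loss of the gene changed the muscle transcripts. It was fitted with limma on log2(intensity + 16) over all 13644 genes, with title number range and letter as covariates, and a gene was called at a Benjamini-Hochberg adjusted p of 0.05. None of the 10 genes was called (0 of 10), while 588 of 13644 genes were (4.31%), and 0 of the 10 had an unadjusted p under 0.05, against 19.4% of all genes. The fitted difference was positive for 5 genes and negative for 5, with a median of -0.04 (log2), against -0.0047 over all genes. Actg2 had the highest value, 0.36 ± 0.46 (SE; 95% interval -0.69 to 1.40; limma adjusted p = 0.740), and Mylk the lowest, -0.31 ± 0.23 (-0.82 to 0.20; limma adjusted p = 0.507). Acta2 had 0.01 ± 0.23 (-0.51 to 0.53), Myh11 -0.16 ± 0.50 (-1.29 to 0.98) and Synm -0.10 ± 0.44 (-1.10 to 0.91). These intervals leave room for sizable changes either way: the median SE was 0.38 over the 10 genes and 0.10 over all genes tested. Without control 1 the median difference was -0.52, and without control 2 it was 0.59, so its sign rested on which control was kept. No gene had knockouts and controls that did not overlap (0 of 10), against 21.8% of all genes.

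The labels say nothing of separate cultures or litters beyond each animal's own number, so these p-values measure the spread between these samples. The knockouts H and knockouts L fits share the controls, so their values are set side by side. For knockout H against control the fitted difference was positive for 2 of the 10 genes and negative for 8, with a median of -0.14, and 0 of 10 were called, against 2.43% of all genes. For knockout L against control it was positive for 9 and negative for 1, with a median of 0.37, and 0 of 10 were called, against 0.344% of all genes. That median depended on the covariates and on single arrays: it was 0.12 without covariates, 0.063 with number range alone, 0.074 without knockout L 3 and -0.20 without control 1. For knockout H against control it was 0.15 without knockout H 5 and 0.35 without control 2.

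The comparison of knockout H with knockout L, the title classes of the knockouts, gave one sign for all 10 genes. The fitted difference was negative for 10 of 10, with a median of -0.53 (log2). Its size depended on the letter covariate and, through it, on the controls: the median was -0.23 without covariates, -0.24 with number range alone and -0.35 with control 1 or control 2 left out. It was -0.79 ± 0.35 for Actg2 (SE; 95% interval -1.60 to 0.01), -0.76 ± 0.41 for Myh11 (-1.70 to 0.19), -0.34 ± 0.15 for Lmod1 (-0.69 to 0.01) and -0.28 ± 0.20 for Mylk (-0.73 to 0.17). None of the 10 was called or had an unadjusted p under 0.05, and 0 of 13644 genes were called (0%), with 2.22% of all genes at an unadjusted p under 0.05. Knockouts H and L overlapped for every one of the 10 genes, against 1.55% of all genes that did not overlap, and since the genes move together, their 10 signs are not independent. By the mean log2 deviation of the 10 genes, knockout H 3 (0.43) was as high as knockouts L 1 (0.31) and L 3 (0.37). By the same mean, knockout L 2 (-0.25) was as low as most knockouts H. Single genes differed: for Myh11, knockout L 2 (340) lay above every knockout H but H 3.

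**Figure D3:**
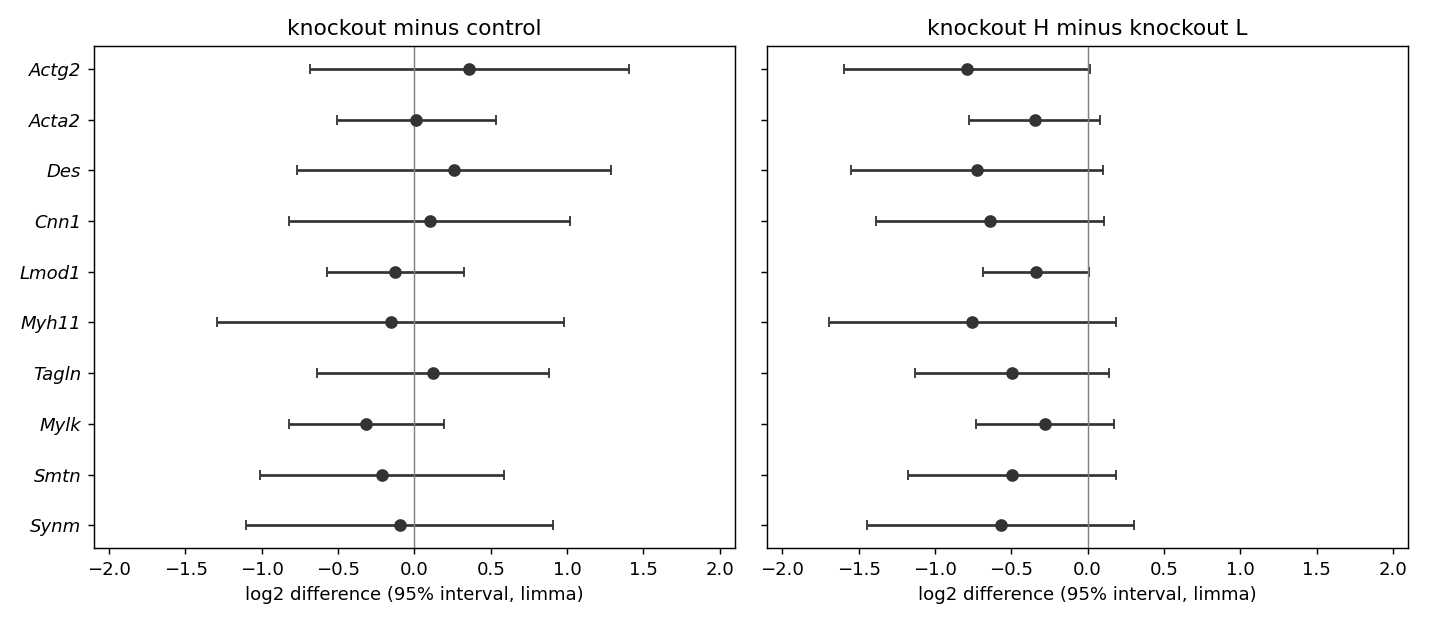
Fitted log2 difference (x axis) with its 95% interval for each gene (rows), knockout minus control on the left and knockout H minus knockout L on the right. The left intervals all cross 0 with points from -0.31 to 0.36, and the right points all lie below 0, from -0.79 to -0.28, with intervals that reach 0.

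The upper number range against the lower one gave negative values for 9 of 10 genes, with a median of -0.16. None of the 10 was called (0 of 10), against 0.645% of all genes. What the number ranges stand for is not given, and both controls lie in the lower range. With control 1 or control 2 left out the median was -0.039, and 45 of all genes were called instead of 88, so the controls bear on this term through the letter covariate.

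The lung epithelium list moved against the muscle block on these arrays. All 13 measured genes of that list had a negative r with the mean of the 10 muscle genes, from -0.79 to -0.20, with a median of -0.63. That median was -0.55 without knockouts H 2 and H 5. Other lists also had a negative median r over the 10 arrays. Among them were endothelium, at -0.38 with 1 of 12 genes above 0, and leukocytes, at -0.31 with 2 of 13 above 0. The mean log2 deviation of the list was highest in knockouts H 2 (0.96) and H 5 (0.64), where that of the muscle genes was -0.46 and -0.19, and lowest in knockout H 3 (-0.58), where that of the muscle genes was 0.43. The summed intensity of the lung list ran from 4457 to 14397 in knockouts, against 5776 and 5476 in controls; that of the 10 muscle genes ran from 5990 to 10613 in knockouts, against 5850 and 11908 in controls. None of the lung list was at 0. In controls 1 and 2 the lung deviations were -0.21 and -0.33 and the muscle deviations -0.52 and 0.66. Without H 2 and H 5 the median knockout-control difference of the muscle genes was 0.34, with 0 of 10 called, and the median r over their 45 pairs was 0.90. The part of lung tissue in the muscle values was not tested.

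**Figure D4:**
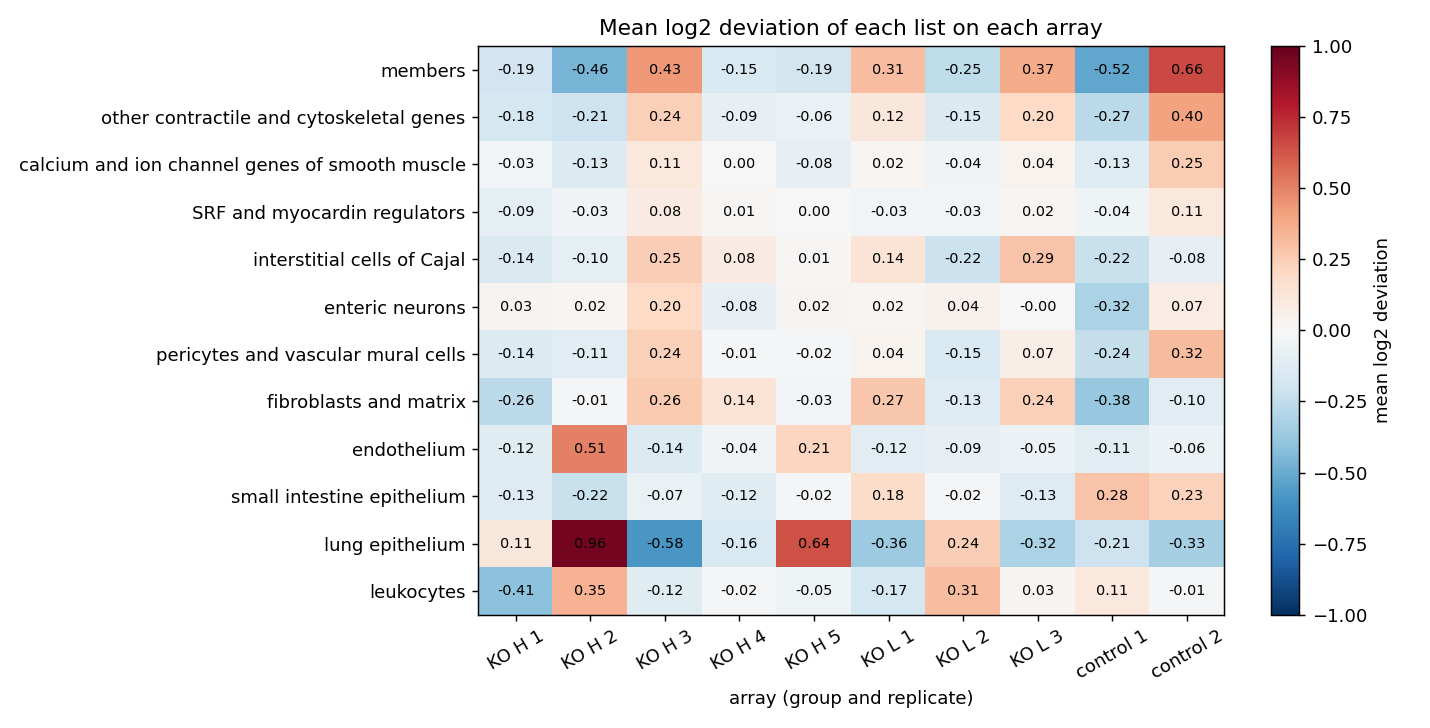
Mean log2 deviation from each gene's mean (colour and printed value) for lists of marker genes (rows) on each array (columns). The muscle genes (row named members) and the other contractile genes are high in knockout H 3, knockouts L 1 and L 3 and control 2, while lung epithelium is highest in knockouts H 2 and H 5.

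Genes most like the block were sought by Pearson's r with the mean of the 10 standardised genes over the 10 arrays. Over the 13634 other genes tested the median r was -0.02, and 127 (0.931%) exceeded 0.8. The 10 most alike were Myl9 (r = 0.98), Tpm2 (0.98), Foxp2 (0.98), Flna (0.97), Ckm (0.97), Stum (0.97), Pcp4 (0.97), Synpo2 (0.96), Ckb (0.96) and Sh3bgr (0.96), and each of them had the same 4 highest arrays. Myl9, the regulatory light chain that Mylk phosphorylates, ran from 793 in control 1 to 1785 in control 2. Tpm2, a tropomyosin of the thin filament, ran from 914 to 2118 and Flna, filamin A, which cross-links actin, from 314 to 685. For Actg2 alone the 5 most alike were Tor1b (r = 0.96), Myl9 (0.94), Tpm2 (0.94), Ckb (0.93) and Cpe (0.93).

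Read by list, other contractile and cytoskeletal genes followed the block most closely, with a median r of 0.82 over 28 genes. Of these 15 exceeded 0.8 and 13 had the same 4 highest arrays; Fhl1 (-0.15), Cnn2 (-0.25), Dmd (-0.03) and Sgca (0.12) did not follow. Calcium and ion channel genes of smooth muscle had a median r of 0.73 over 12 genes, and 4 exceeded 0.8. Among them were Kcnmb1 (0.87), the beta subunit of the large-conductance potassium channel of smooth muscle, and Casq2 (0.86), a calsequestrin that binds calcium in the sarcoplasmic reticulum. Kcnmb1 was dim, at 13.8 to 20.1, close to the array medians. This list and the pericyte list share genes. The upstream regulators did not move with the block as a list: SRF and myocardin regulators had a median r of 0.17 over 12 genes with 0 above 0.8, although Myocd itself, the coactivator myocardin, had 0.70 and Srf 0.38. Receptors for transmitters and nitric oxide signalling genes had 0.18 over 12 genes. Markers of pericytes had 0.63 over 8 genes, of interstitial cells of Cajal 0.50 over 4, of enteric neurons 0.49 over 13 and of fibroblasts 0.48 over 18, while endothelium had -0.38 over 12 and small intestine epithelium -0.00 over 15. Over the 8 knockouts alone the median was 0.80 for interstitial cells of Cajal, with 3 of 4 above 0.8, and 0.71 for fibroblasts, with 5 of 18 above 0.8, where 2.93% of all genes were above 0.8. It was 0.74 for other contractile genes, 0.56 for calcium and ion channel genes and -0.84 for lung epithelium.

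**Figure D5:**
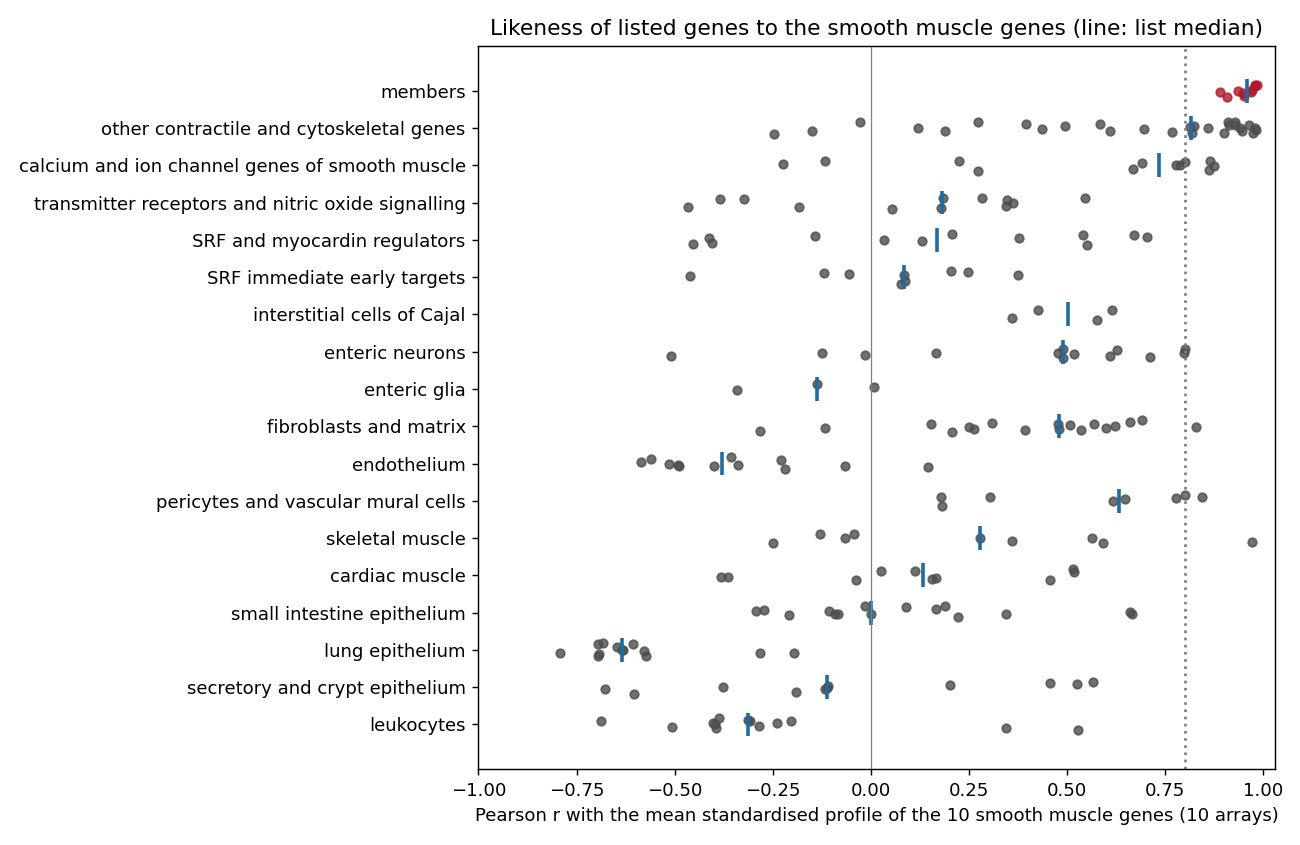
Pearson's r of each gene with the mean of the 10 muscle genes over the 10 arrays (x axis), by list (rows), one point per gene with the list median as a short line, a dotted line at 0.8, and the 10 muscle genes, which enter their own mean, on top (row named members). Other contractile genes centre on 0.82 and calcium and ion channel genes on 0.73, SRF and myocardin regulators on 0.17, and lung epithelium on -0.63.

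In knockout against control, the other muscle genes were read from the same fit. Of 28 other contractile genes, 1 rose and 1 fell, with a median log2 difference of -0.04, while 1.52% of all genes rose and 2.79% fell. Filip1l, a filamin A interacting protein, rose to 188 ± 21.3 in knockouts (SD, n = 8), against 107 and 132 in controls, a fitted difference of 0.54 ± 0.13 (log2, SE; limma adjusted p = 0.0465). Ldb3, a Z-disc protein of striated muscle, fell to 163 ± 18.2 in knockouts, against 226 and 247 in controls, a fitted difference of -0.55 ± 0.11 (limma adjusted p = 0.0332). Neither followed the muscle block closely, with r of 0.27 and 0.19. None of 12 calcium and ion channel genes, 12 receptor and nitric oxide genes or 12 SRF and myocardin regulators was called, with medians of -0.06, -0.01 and -0.03. Of 9 immediate early SRF targets 1 rose: Ccn2, a secreted matrix protein, at 0.64 (limma adjusted p = 0.0451).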

How the data were processed

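The 10 arrays hold total RNA of mouse tissue, labelled with biotin per the labels; the deposited value table holds linear intensities for 45101 probe sets, and how the authors summarised and normalized them is not given in the sources used here. After 64 array control probe sets were left out, 34945 of 45037 probe sets had 1 gene symbol in the platform annotation, 932 had several and 9160 had none; 34741 symbols were matched to current RefSeq symbols. Where a gene had several probe sets, the brightest on average was kept. Values were log2(intensity + 16), so differences of dim genes are understated. Genes with a mean above the 25th percentile (intensity 13.6) were tested in R 4.3.3 by limma 3.58.1, through lmFit and eBayes. Covariates were title number range and letter (M, F), and p-values were adjusted by Benjamini and Hochberg's method across the 13644 genes. The scripts were tested on simulated data with known changes. The number of arrays limits the precision.

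Named were the 10 genes, Cftr, 4 tissue checks, up to 3 genes of each other list with the smallest p in knockout against control, and the genes most alike. Fhl1, Cnn2, Dmd, Sgca, Kcnmb1, Casq2, Myocd and Srf were added after their values were seen. The 10 genes and all lists were chosen with earlier results of these data known. Alternatives were other covariates, pseudocounts, filters, scalings, probe set rules, the lower number range alone and leaving out each array. The arrays highest in lung transcripts and the test by letter were added after seeing the data.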

Additional observations from a re-analysis of the deposited data

Results flagged for a closer look

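Knockout H 3 stood far from the other knockouts H in 4 of 28 groups of values examined. Chance flags about 1 in 20 groups when they are independent. These groups are not, since the muscle genes move together, so the count of 4 cannot be weighed against chance. The Acta2 intensity of knockout H 3 was 3286, against 2351 to 2610 in the other 4 knockouts H. Its Myh11 intensity was 637, against 234 to 311, and its Synm intensity was 203, against 87.0 to 120. The mean log2 deviation of the secretory and crypt epithelium list was 0.12 in this array and -0.01 to 0.02 in the others.

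For 7 genes, every M knockout lay below the M control and every F knockout lay above the F control, with 1 control of each letter. The fitted knockout effect in M minus that in F (log2) was -0.81 for Acta2, -1.21 for Des, -1.18 for Cnn1, -0.69 for Lmod1, -1.72 for Myh11, -1.25 for Smtn and -1.86 for Synm. The test of this difference, limma with an interaction term, called none of the 10 genes and 0 of 13644 genes (0%; adjusted p = 0.99993 for each of the 10). The unadjusted p was under 0.05 for 6 of the 10 genes, against 3.70% of all genes. The test was added after the data were seen, and the 10 genes move together, so their p-values are not independent and their count shows no more than the gap between the controls. Letter and control animal cannot be told apart, since each letter has a single control.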

How the results depend on the processing

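No paired analysis was possible because the groups share no replicate number in the labels. In none of the 24 alternatives was any of the 10 genes called in any comparison (smallest limma adjusted p 0.138). The sign of the median difference in knockout H against knockout L stayed negative throughout, from -0.86 to -0.23. Leaving out 1 array at a time moved the median from -0.52 to 0.59 in knockout against control, -0.49 to 0.35 in knockout H against control, -0.20 to 0.80 in knockout L against control, -0.73 to -0.35 in knockout H against knockout L and -0.59 to -0.0021 in upper against lower range; a control left alone is assumed to vary like the other groups. The median in knockout against control was also positive without knockout H 4 (0.0062) and H 5 (0.27), and -0.24 without knockout L 3. The ends of its range are without control 1 and without control 2, and so are those of single genes: Actg2 -0.27 to 0.89, Acta2 -0.43 to 0.38, Des -0.40 to 0.81, Cnn1 -0.54 to 0.64, Lmod1 -0.50 to 0.19, Myh11 -1.09 to 0.63, Tagln -0.39 to 0.56, Mylk -0.77 to 0.069, Smtn -0.89 to 0.36 and Synm -1.10 to 0.75. Without knockout L 3, Acta2 (-0.17), Des (-0.043), Cnn1 (-0.19) and Tagln (-0.11) changed sign, and without knockout H 5, Lmod1 (0.11), Myh11 (0.24), Smtn (0.17) and Synm (0.29). Sign changes with all arrays kept were Acta2 -0.069, Cnn1 -0.055 and Synm 0.0035 without covariates, Acta2 -0.017 with range only, Acta2 -0.083, Des -0.018 and Cnn1 -0.081 with letter only, Acta2 -0.0036 scaled to the 75th percentile and -0.13 with the mean of probe sets. Without knockouts H 2 and H 5, which read highest for lung genes (chosen after seeing the data), Lmod1 was 0.13, Myh11 0.32, Smtn 0.24 and Synm 0.36. The causes were not tested.

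Calls over all genes moved more. Knockout against control had 1366 calls without covariates, 1222 with letter only, 1033 in the lower range alone, 890 with every probe set and 0 to 813 without 1 array (0 without control 1, 57 without control 2). Knockout H against control had 878, 653 and 1143 in the first 3 of these, 155 with pseudocount 1, 99 without knockouts H 2 and H 5 and 0 to 433 without 1 array. Knockout L against control had 543 without covariates, 173 with range only, 578 with letter only, 761 in the lower range, 4 with pseudocount 1, 5 without a filter, 3 with the filter at the 50th percentile, 9 with every probe set and 0 to 224 without 1 array. Knockout H against knockout L had 25 in the lower range and 0 to 0 without 1 array. Upper against lower range had 481 without covariates, 198 with range only, 41 with the mean of probe sets, 296 with every probe set, 13 without knockouts H 2 and H 5 and 13 to 123 without 1 array; with letter only or within the lower range it could not be fitted. Filip1l lost its call in 11 of 24 alternatives, Ccn2 in 13, Lum in 9, Vip in 7, Ldb3 in 5, Fabp2 in 4, Vil1 in 3, Cdx2 in 2 and Cftr in 1.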

Other observations

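Markers of other cell types were read in knockout against control, as log2 differences. Transcripts of both intestine and lung were present, and the organ these markers came from was not tested. Over all genes 48.7% had a positive difference, 1.52% rose and 2.79% fell, with a median of -0.0047. Of 13 enteric neuron genes 7 had a positive and 6 a negative difference, with a list median of 0.02, and 1 rose. This was Vip, the vasoactive intestinal peptide that relaxes smooth muscle. It read 280 ± 86.0 in knockouts (SD, n = 8), against 50.7 and 93.1 in controls (a fitted difference of 1.43, adjusted p = 0.0285 in the limma fit, a call lost in 7 of 24 alternatives). Of 4 genes of the interstitial cells of Cajal, the pacemakers of gut muscle, 0 were called. Their differences were positive for 2 and negative for 2, with a list median of 0.26. Kit, a receptor tyrosine kinase listed here for these cells, read 91.7 ± 23.2 in knockouts, against 44.6 and 51.4 in controls. Its fitted difference was 0.81 (adjusted p = 0.0877 in the limma fit), and which cells carried it was not tested. Prkcq, of the same list, had a fitted difference of -0.16. Of 18 fibroblast and matrix genes 17 had a positive difference and 1 rose, with a list median of 0.31. The gene that rose was Lum, a collagen-binding proteoglycan (0.95, limma adjusted p = 0.0415, a call lost in 9 of 24 alternatives). The mean log2 deviation of this list was -0.38 and -0.10 in controls 1 and 2. In knockouts it ran from -0.26 to 0.27, so the groups overlapped. Genes of a list share the arrays, so their signs are not independent. Of 15 small intestine epithelium genes 11 had a negative difference and 3 fell, with a list median of -0.51: Cdx2, an intestinal transcription factor (-0.85), Fabp2 (-0.93) and Vil1 (-0.51). Other epithelial genes rose. Of 11 secretory and crypt epithelium genes 6 had a positive and 5 a negative difference, 2 rose and 0 fell, with a list median of 0.11. The 2 were Olfm4 (0.92) and Agr2 (0.65), with limma adjusted p of 0.0348 and 0.0432. These calls were lost in 9 and 13 of 24 alternatives. Of 12 endothelium genes 10 had a positive difference and 0 were called, with a list median of 0.15.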
